A study of Mus musculus with 11 samples.

Results

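A set of 9 genes of the extracellular matrix and its receptors were followed through serial passage of mouse intestinal organoids. They were the laminin chains Lama5 and Lamb1, nephronectin (Npnt), fibronectin (Fn1), osteopontin (Spp1), Smoc1, Emid1, the collagen prolyl hydroxylase P3h1 and the laminin receptor subunit Itga6. These 9 genes were named by symbol out of 37310 gene identifiers, with late and early passage values of these libraries already known, so that their late and early levels are given as a description with no test. The late group held organoids at passages 11, 12 and 13 from mouse_285 and mouse_283 (n = 6). The early group held organoids at passages 2 and 4 from mouse_285 and passages 2, 3 and 4 from mouse_283 (n = 5). Both groups came from small intestine epithelium of Lgr5-EGFP-IRES-creERT2 mice, a line that carries a green fluorescent reporter and an inducible Cre at the stem cell gene Lgr5. The labels used here mention no induction of the Cre, and they give ages of 4 and 24 months without tying an age to either animal. All organoids had been grown in Matrigel, a basement membrane extract of a mouse tumour, with a commercial organoid medium, and were passaged every 7 days.

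A basement membrane is a thin sheet of laminin, collagen IV, nidogen and proteoglycans on which epithelial cells sit. Laminins are trimers of an alpha, a beta and a gamma chain, and epithelial cells hold on to them mainly through integrins, receptors of an alpha and a beta subunit. In the gut much of the matrix beneath the epithelium is made by stromal cells, which crypt-derived organoids are not meant to contain, and Matrigel supplies laminin and collagen IV from outside.

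Promoter sequences are shown for Npnt, Emid1 and P3h1, whose late and early libraries did not overlap, and for Spp1, which was seen in 3 libraries only. They are given since the title of the series concerns DNA methylation, which in mammals falls mainly on CG dinucleotides. RefSeq tables on GRCm38.p6 held a promoter for 6 of the 9 genes, namely Npnt, Emid1, Spp1, P3h1, Lama5 and Lamb1. Each sequence is the 250 bases before the first listed start, written 5′ to 3′ on the gene's own strand with every CG in capitals. Npnt (chr3:132950292-132950541, minus strand), Emid1 (chr11:5152231-5152480, minus strand), P3h1 (chr4:119232665-119232914, plus strand) and Spp1 (chr5:104434861-104435110, plus strand) follow.
Npnt: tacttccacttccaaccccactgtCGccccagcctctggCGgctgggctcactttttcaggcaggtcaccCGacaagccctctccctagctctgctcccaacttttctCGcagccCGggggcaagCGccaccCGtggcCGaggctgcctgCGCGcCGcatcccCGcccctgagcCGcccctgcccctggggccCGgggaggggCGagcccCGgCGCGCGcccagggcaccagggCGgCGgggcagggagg
Emid1: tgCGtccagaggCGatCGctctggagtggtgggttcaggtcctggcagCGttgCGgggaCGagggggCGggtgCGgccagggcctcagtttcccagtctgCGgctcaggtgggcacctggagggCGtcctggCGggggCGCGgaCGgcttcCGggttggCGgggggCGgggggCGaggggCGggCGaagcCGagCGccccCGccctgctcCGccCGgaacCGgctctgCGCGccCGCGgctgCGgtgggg
P3h1: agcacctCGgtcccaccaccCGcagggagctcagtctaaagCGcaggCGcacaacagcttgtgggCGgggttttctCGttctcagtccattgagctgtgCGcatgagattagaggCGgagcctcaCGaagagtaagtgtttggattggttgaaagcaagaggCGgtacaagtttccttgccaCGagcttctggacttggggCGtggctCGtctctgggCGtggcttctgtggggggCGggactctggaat
Spp1: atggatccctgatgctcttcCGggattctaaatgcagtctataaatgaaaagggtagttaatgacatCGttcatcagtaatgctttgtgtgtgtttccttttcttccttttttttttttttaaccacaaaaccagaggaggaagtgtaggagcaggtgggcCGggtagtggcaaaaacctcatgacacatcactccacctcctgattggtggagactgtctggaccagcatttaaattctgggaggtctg
Emid1 had 31 CG in this window, Npnt 21, P3h1 15 and Spp1 3. Across 32851 RefSeq promoters of the same length the median was 6, and 5.19% held at least as many as Emid1, 16.3% as many as Npnt, 27.3% as many as P3h1 and 71.0% as many as Spp1. Lama5 had 19 and Lamb1 14, so Spp1 was the CG-poor promoter of the 6. The Spp1 window also held 1 TATAAA on either strand, a motif found in 12.4% of all promoters and in no other of these 6 windows. It stood near the 5′ end of the printed sequence, away from the listed start. Neither TGANTCA, the core letters bound by AP-1 factors, nor GGAATG, those bound by TEAD factors, was found on either strand in these 6 windows. They occur in 6.75% and 12.6% of all promoters. The genes shown have a second listed start, and the 250 bases before it held 23 CG in Npnt, 9 in P3h1, 6 in Emid1 and 3 in Spp1. This second window of Emid1 held 1 GGAATG. These matches are descriptions of letters, and methylation was not analysed here.

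Gene reads per library ran from 15114132 to 28949911, and values below are TMM-normalised counts scaled to library size, in the usual unit CPM. A count of 3 reads, taken as the limit of detection per library, corresponds to 0.0979 to 0.187 normalised CPM. Markers of intestinal epithelium were detected in every library, 8 of 8, with a summed level of 7276 to 9947 CPM in late and 8137 to 16910 CPM in early organoids. Markers of fibroblasts and smooth muscle summed to 12.1 to 19.9 CPM late and 13.1 to 22.5 CPM early, mostly Vim at 9.20 to 15.8 CPM, while Dcn, Lum and Thy1 had 0 reads in every library. Endothelial markers summed to 1.17 to 2.12 CPM late and 1.47 to 2.60 CPM early, with Kdr and Emcn at 0. Enteric neuron and glia markers summed to 3.67 to 6.74 CPM late and 1.81 to 6.26 CPM early, with Sox10 at 0. Immune cell markers summed to 7.12 to 13.6 CPM late and 9.82 to 21.8 CPM early, with Cd8a at 0 and Ptprc, which marks all leukocytes, at 1 read at most in any library. Passages 3 and 4 of mouse_283 stood apart in base composition: log2 expression rose by 0.97 and 0.78 per 10 points of gene GC content against the average library, while the other libraries lay between -0.41 and 0.20. Passage 3 of mouse_283 also had 1.05% mitochondrial reads, against 2.32% to 6.04% elsewhere. In bulk RNA, fewer cells of a type and less RNA per cell cannot be told apart. No label says when a library was made, so passage and time of handling cannot be told apart.

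Npnt was higher in late organoids and Emid1 and P3h1 lower, with no overlap between the groups. For the other 6 genes late and early values overlapped. Among all 14172 genes tested, every late library lay beyond every early library for 5.72%, with 2.21% above and 3.51% below. At an adjusted p under 0.05, 0.706% of all genes were higher and 2.34% lower in late organoids. Because the 9 genes were picked on this contrast, nothing is read from their 3 of 9. All 9 passed the filter on low counts, Fn1 and Spp1 only through early libraries of mouse_283.

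**Figure D1:**
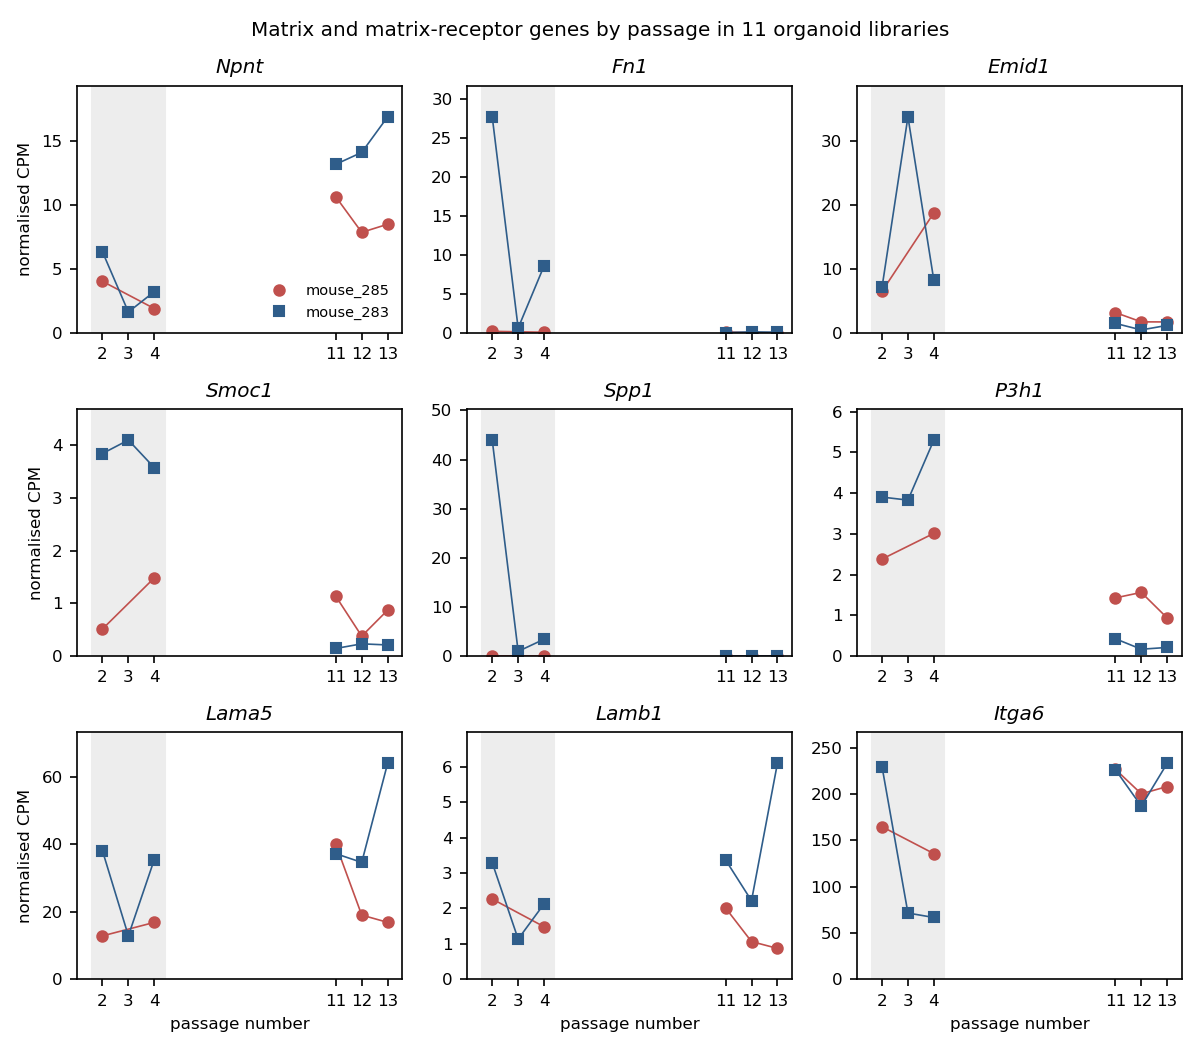
Normalised CPM (vertical axis, linear, one scale per gene) against passage number for the 9 genes, 1 point per library, circles for mouse_285 and squares for mouse_283; grey marks early passages. Npnt lay at 7.86 to 16.9 CPM in late and 1.62 to 6.34 CPM in early libraries, while Spp1 was seen in the 3 early libraries of mouse_283.

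Laminin chains came first among the matrix components. Lama5 encodes the alpha chain of the main laminins of adult epithelial basement membranes. In mouse_285 it had 39.9, 19.0 and 16.8 CPM at passages 11, 12 and 13, against 12.8 and 16.8 CPM at passages 2 and 4. In mouse_283 it had 37.2, 34.6 and 64.0 CPM late, against 38.1, 12.8 and 35.4 CPM at passages 2, 3 and 4. The late libraries of mouse_285 were just above its early ones, with passages 13 and 4 equal to the digits given, and those of mouse_283 overlapped. The means were 35.2 ± 17.1 CPM late (SD, n = 6) and 23.2 ± 12.5 CPM early (SD, n = 5), a difference of 0.71 in mean log2 CPM that narrowed to 0.44 without passages 3 and 4 of mouse_283.

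Lamb1 encodes a beta chain that pairs with alpha chains including that of Lama5. It had 2.01, 1.06 and 0.87 CPM at passages 11 to 13 of mouse_285, against 2.27 and 1.48 CPM at passages 2 and 4. The libraries of mouse_283 had 3.37, 2.22 and 6.11 CPM late, against 3.29, 1.13 and 2.13 CPM early. The late minus early difference was -0.54 in mouse_285 and 0.81 in mouse_283 on the log2 scale, and within each the late and early libraries overlapped. Averaged over the animals the late minus early difference was 0.14, and it was -0.20 without passages 3 and 4 of mouse_283, so no direction is given for Lamb1.

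Per kilobase of transcript, where levels of different genes can be set side by side, Lama5 ranked 4 late and 5 early among the laminin chains, and Lamb1 6 in both groups. Lamb3, a beta chain of the epithelial anchoring laminin, led with 34.9 ± 7.10 CPM per kb late (SD, n = 6) and 58.6 ± 18.9 early (SD, n = 5). Lama5 had 3.09 ± 1.50 CPM per kb late and 2.04 ± 1.10 early, and its neighbour Lamb2 had 1.32 ± 0.39 late and 2.43 ± 1.59 early. Lamb1 had 0.45 ± 0.33 CPM per kb late and 0.36 ± 0.14 early. In early organoids Lama5 and Lamb2 lay within their SDs of each other. Lamc1, the gamma chain that joins Lama5 and Lamb1 in one trimer, had 61.4 CPM late and 59.9 early, a log2 fold change of 0.04 (adjusted p = 0.924, edgeR quasi-likelihood test). Lamb2, the alternative beta chain, had 7.42 CPM late and 13.7 early, a log2 fold change of -0.78 (adjusted p = 0.208, same test). Neither passed the threshold of 0.05.

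**Figure D2:**
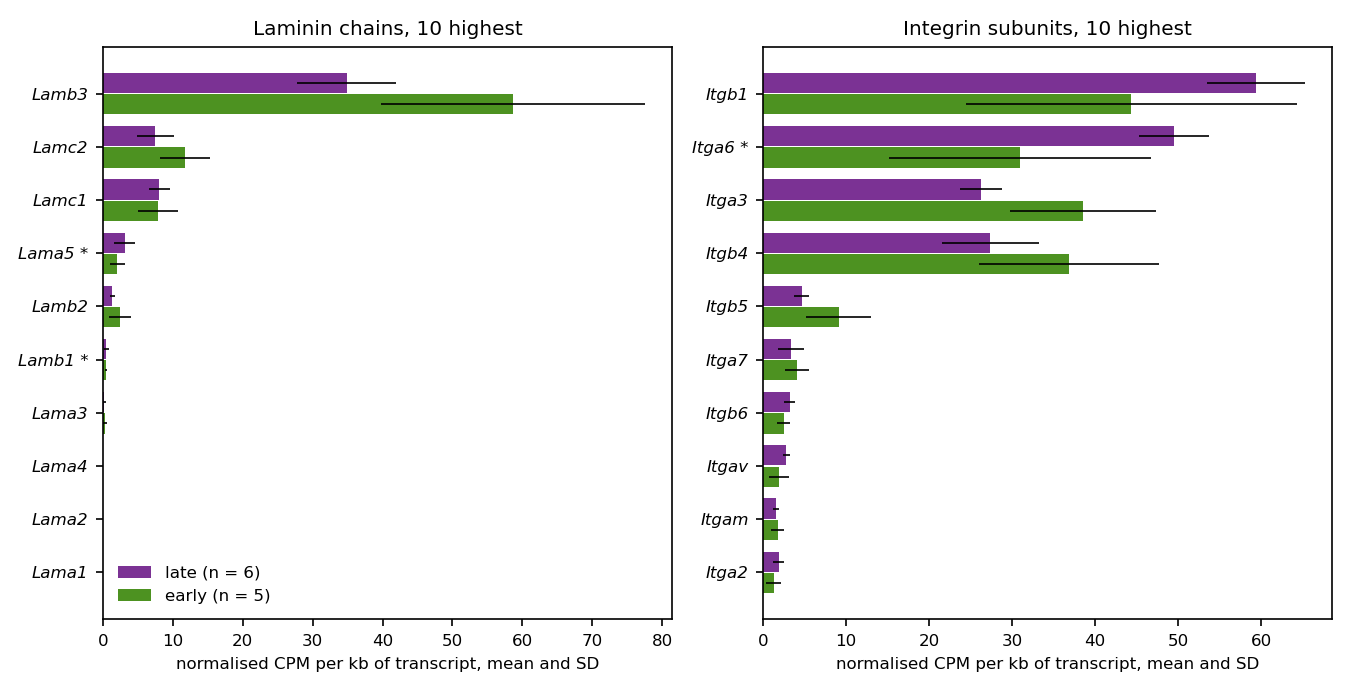
Mean normalised CPM per kb of the longest transcript (horizontal axis, linear from 0) in late (upper bars, n = 6) and early (lower bars, n = 5) libraries for the 10 highest laminin chains and integrin subunits; lines are SD and asterisks mark Lama5, Lamb1 and Itga6. Itga6 averaged 49.5 CPM per kb late and 31.0 early, ranking 2 late and 4 early among the integrin subunits, while Lama5 and Lamb1 lay far below Lamb3.

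Nephronectin, the Npnt product, is a basement membrane protein best known as the ligand of the integrin that contains Itga8. In mouse_285 Npnt had 10.7, 7.86 and 8.50 CPM at passages 11 to 13, against 4.02 and 1.89 CPM at passages 2 and 4. In mouse_283 it had 13.2, 14.1 and 16.9 CPM late, against 6.34, 1.62 and 3.21 CPM early. Each late library exceeded each early one in both animals. The means were 11.9 ± 3.50 CPM late (SD, n = 6) and 3.42 ± 1.91 CPM early (SD, n = 5), a ratio of 3.48, and the late minus early difference was 1.66 in mouse_285 and 2.15 in mouse_283 on the log2 scale. It was 1.43 averaged over the animals without passages 3 and 4 of mouse_283, against 1.91 with them. Per kb, Npnt ranked 6 late and 9 early of the 22 genes in its list of other basement membrane components, at 2.57 CPM per kb late and 0.74 early. Agrin (Agrn), a heparan sulfate proteoglycan, led that list with 25.6 CPM per kb late and 27.5 early. The receptor subunit Itga8 had 2 reads in 1 library, passage 11 of mouse_285, and none in the other 10, so it was not tested.

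Fibronectin and osteopontin are adhesive glycoproteins with the integrin-binding motif RGD, and osteopontin also binds CD44. Both were detected mainly in early cultures of mouse_283. Fn1 had 2, 0 and 0 reads at passages 11, 12 and 13 of mouse_285, against 3 and 1 reads at passages 2 and 4. In mouse_283 it had 0, 3 and 1 reads late, against 455, 11 and 238 reads at passages 2, 3 and 4. These 455, 11 and 238 reads are 27.8, 0.59 and 8.59 CPM. Late and early libraries of mouse_285 overlapped at or below the limit of detection, and those of mouse_283 did not overlap. In mouse_283 the early over late ratio of summed reads, scaled to depth, was 200.4, a description that rests on 4 late reads. Without passage 2 of mouse_283, which held 455 of the 704 early reads, it was 96.0. A share of 4.545% of the Fn1 reads in the strand columns fell where a gene on the other strand overlaps it, and strand was not kept in the counts used.

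Spp1 had 0 reads in all 3 late and both early libraries of mouse_285. The cultures of mouse_283 had 0 reads at passages 11, 12 and 13, against 721, 17 and 94 reads at passages 2, 3 and 4, or 44.0, 0.92 and 3.39 CPM. In mouse_283 the late level was at least 104-fold lower than the early mean of 16.1 CPM, against the limit of 3 counts per library. Without passage 2 that early mean was 2.16 CPM, and the late level was at least 13.9-fold lower. Fn1 and Spp1 thus shared their order over the early libraries of mouse_283, with passage 2 highest and passage 3 lowest. Passage 2 of mouse_283 also had the highest summed immune markers, 21.8 CPM, with Itgam at 13.5 and Cd68 at 7.50 CPM, and the highest fibroblast markers, 22.5 CPM, with Col1a1 at 0.85 CPM. It also had 11.7% of its reads in no gene, against 3.77% to 6.64% in the other libraries. At passage 4 of mouse_283, where both genes were still above every late library, immune markers summed to 9.82 CPM and fibroblast markers to 15.1 CPM, both within the range of late libraries. The part of these markers and reads in the levels of Fn1 and Spp1 was not tested.

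The receptors of these glycoproteins were measured in the same libraries. Itga5, the fibronectin receptor alpha subunit, had 0.81 CPM late and 1.08 early (log2 fold change -0.50, adjusted p = 0.484, edgeR). Itgav, an alpha subunit shared by receptors for both ligands, had 19.7 CPM late and 13.6 early (log2 fold change 0.54, adjusted p = 0.354, edgeR). Without passage 2 of mouse_283 its log2 fold change was 1.02 (adjusted p = 0.0286, edgeR), and without passages 3 and 4 of that animal it was 0.02 (adjusted p = 0.951), the highest p of all alternatives run. Cd44, a hyaluronan and osteopontin receptor, had 75.2 ± 14.9 CPM late (SD, n = 6) and 36.0 ± 23.3 early (SD, n = 5). Its log2 fold change was 1.12 (SE 0.31), with adjusted p = 0.0716 in edgeR and 0.00715 in DESeq2. It passed without passage 2 of mouse_283 (adjusted p = 0.00349, edgeR). In that fit, also used for Itgav above, 4872 genes passed late against early, against 432 with all libraries. Over all alternatives run the adjusted p of Cd44 lay between 6.15e-05 and 0.226. The groups overlapped in range, 52.6 to 91.3 CPM late and 20.3 to 75.9 early.

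Smoc1 and Emid1 are small secreted glycoproteins. Smoc1 binds calcium and, in frog embryos, inhibits BMP signalling. It had 1.13, 0.37 and 0.87 CPM at passages 11 to 13 of mouse_285, against 0.51 and 1.48 CPM at passages 2 and 4. In mouse_283 it had 0.14, 0.23 and 0.21 CPM late, against 3.84, 4.10 and 3.57 CPM early. The 3 early libraries of mouse_283 were alike and above all other libraries, and those of mouse_285 overlapped between the stages. Its relative Smoc2, a marker of crypt base stem cells, was far more abundant per kb, at 113 CPM per kb late and 133 early, against 0.14 and 0.77 for Smoc1. Smoc2 did not pass the test (log2 fold change -0.24, adjusted p = 0.480, edgeR).

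Emid1 encodes a secreted protein with an EMI domain, a cysteine-rich module of matrix proteins. It had 3.14, 1.69 and 1.68 CPM at passages 11 to 13 of mouse_285, against 6.46 and 18.7 CPM at passages 2 and 4. The libraries of mouse_283 had 1.45, 0.42 and 1.14 CPM late, against 7.07, 33.8 and 8.16 CPM early. Every late library lay below every early one in both animals. The highest level was in passage 3 of mouse_283, the library with the steepest rise of expression with GC content, and Emid1 had the highest GC content of the 9 transcripts at 61.9%. The late minus early difference averaged over the animals was -3.01 in mean log2 CPM, -2.65 with offsets for GC content and length, and -2.59 without passages 3 and 4 of mouse_283.

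P3h1 adds hydroxyl groups to single prolines of collagen chains in the endoplasmic reticulum, in a complex with Crtap and the prolyl isomerase Ppib. It had 1.43, 1.56 and 0.93 CPM at passages 11 to 13 of mouse_285, against 2.38 and 3.01 CPM at passages 2 and 4. In mouse_283 it had 0.42, 0.16 and 0.21 CPM late, against 3.90, 3.83 and 5.31 CPM early. Late libraries were below early ones in each animal, by -1.01 in mouse_285 and -3.67 in mouse_283 on the log2 scale. Its complex partners were more abundant: Crtap had 18.7 CPM late and 20.9 early, and Ppib 55.8 late and 73.2 early. Neither passed the test, with log2 fold changes of -0.14 (adjusted p = 0.667) and -0.34 (adjusted p = 0.259) in edgeR. Crtap changed sign, to 0.15 without passages 3 and 4 of mouse_283 and to 0.23 with GC and length offsets.

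Itga6 encodes the alpha subunit that pairs with Itgb1 in a laminin receptor and with Itgb4 in hemidesmosomes, the junctions that tie keratin filaments to the basement membrane. It had 227, 200.1 and 208 CPM at passages 11 to 13 of mouse_285, against 165 and 136 CPM at passages 2 and 4. The cultures of mouse_283 had 226, 187 and 233 CPM late, against 229.5, 71.3 and 66.5 CPM early. Late libraries were above early ones in mouse_285. In mouse_283 passage 2 was as high as the late libraries while passages 3 and 4 were the lowest of all 11. The late minus early difference of 0.78 in mean log2 CPM became 0.21 without those low passages, which are also the libraries that stood apart in GC slope, and 0.66 with GC and length offsets.

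Itgb1 followed the same order in early organoids of mouse_283, with 259, 123 and 77.9 CPM at passages 2, 3 and 4, while Itgb4 ran the other way with 184, 329 and 256 CPM. Their GC contents were 44.9% for Itgb1, 48.9% for Itga6 and 60.0% for Itgb4. Itgb1 averaged 227 ± 22.5 CPM late (SD, n = 6) and 169 ± 76.0 early (SD, n = 5), a log2 fold change of 0.42 (adjusted p = 0.324, edgeR). Itgb4 averaged 170 ± 36.4 CPM late and 229 ± 67.2 early, a log2 fold change of -0.38 (adjusted p = 0.213, edgeR). Neither partner passed with all libraries. Both passed without passage 2 of mouse_283, Itgb1 at 0.68 (adjusted p = 0.0421) and Itgb4 at -0.48 (adjusted p = 0.0345) in edgeR. In that fit 4872 genes passed late against early, against 432 with all libraries. Its early libraries of mouse_283 were passages 3 and 4, which stood apart in GC slope. Over all alternatives run the adjusted p reached 0.881 for Itgb1 and 0.529 for Itgb4. Per kb the order was Itgb1, Itga6, Itgb4 and Itga3 late and Itgb1, Itga3, Itgb4 and Itga6 early, and Itga6 had 49.5 ± 4.21 CPM per kb late and 31.0 ± 15.8 early. In early organoids the means of these 4 subunits lay within their SDs of each other.

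**Figure D3:**
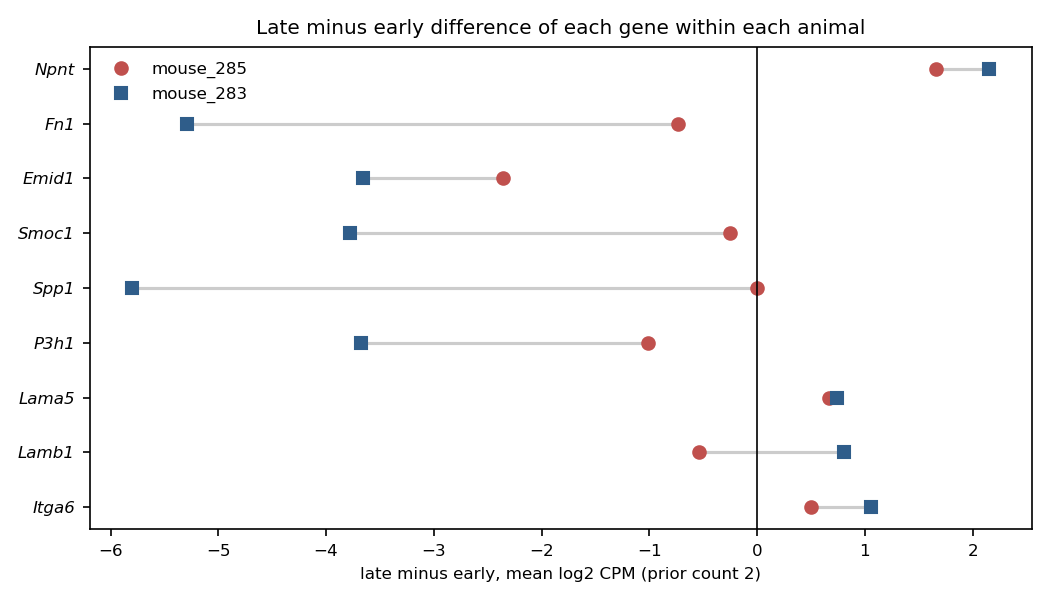
Late minus early difference in mean log2 CPM (horizontal axis, prior count 2) within mouse_285 (circles; 3 late, 2 early libraries) and mouse_283 (squares; 3 late, 3 early libraries) for each gene. Fn1, Emid1, Smoc1, Spp1 and P3h1 lay farther below 0 in mouse_283, and Lamb1 lay on opposite sides of 0.

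The choice of the genes did not use the difference between animals, so this was tested. In a fit over all 14172 genes with the stage in the model, 11 genes (0.0776%) differed between mouse_285 and mouse_283 at an adjusted p under 0.05, and none was among the 9. All 9 overlapped in range between the animals, where 0.515% of genes tested did not overlap. Fn1 and Spp1 entered the fit only through mouse_283, so their p-values are not given. Of the other 7 genes, Lama5 and Lamb1 had an unadjusted p under 0.05, as did 730 of all genes (5.15%). DESeq2 called 0 of these 7 and 118 of all genes. Lama5 had 21.1 ± 10.8 CPM in mouse_285 (SD, n = 5) and 37.0 ± 16.3 CPM in mouse_283 (SD, n = 6), a log2 fold change of -0.89 (SE 0.32, adjusted p = 0.650, edgeR). Without the filter on low counts it passed (adjusted p = 0.0284), and over all alternatives run the adjusted p lay between 0.0284 and 1. The count of all genes passing between the animals also rose without that filter, as given under processing below. Lamb1 had 1.54 ± 0.60 CPM in mouse_285 and 3.04 ± 1.72 CPM in mouse_283, a log2 fold change of -0.95 (SE 0.42, adjusted p = 0.891, edgeR). For Fn1 the early libraries held 4 reads in mouse_285 against 704 in mouse_283. The mouse_283 over mouse_285 ratio, scaled to depth, was 105 and is a description. Without passage 2 of mouse_283 that ratio was 50.1. Npnt, Emid1, Smoc1, P3h1 and Itga6 had unadjusted p of 0.109 to 0.901. With 1 animal on each side, these tests measure the spread between libraries and not between animals.

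Whether late and early differed unequally in the animals was tested as an interaction, the difference in mouse_285 minus that in mouse_283. No gene of 14172 passed in edgeR (0%), 302 had an unadjusted p under 0.05, and DESeq2 called 15. Leaving aside Fn1 and Spp1, Smoc1 and P3h1 were the 2 of 7 with an unadjusted p under 0.05. For Smoc1 the interaction was 3.95 on the log2 scale (SE 0.79, unadjusted p = 0.000334, adjusted p = 0.817, edgeR), and for P3h1 it was 3.00 (SE 0.63, unadjusted p = 0.000469, adjusted p = 0.817, edgeR). Both were lowered more in mouse_283 by point estimate. DESeq2 called both, with adjusted p of 0.0104 for Smoc1 and 0.0195 for P3h1. Without passage 2 of mouse_283, edgeR gave both an adjusted p of 0.00643, and the fits without each of the other libraries in turn gave 0.522 to 1. Over all alternatives run, the adjusted p lay between 0.00365 and 1 for Smoc1 and between 0.00643 and 1 for P3h1. Without the filter on low counts it was 0.00365 for Smoc1 and 0.047 for P3h1 in edgeR. The count of all genes passing the interaction also rose without that filter, as given under processing below. In the fit without passage 2 of mouse_283 that count was 2314, against 0 with all libraries. The call for these genes therefore differed with the tool, with the filter and with that library. The other 5 genes had unadjusted p of 0.113 to 0.861.

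A slope on passage number within the stages was also tested, which asks whether neighbouring passages differ in order. No gene of 14172 passed in edgeR (0%), 911 had an unadjusted p under 0.05, and DESeq2 called 44. Of the 7 genes without Fn1 and Spp1, none had an unadjusted p under 0.05 and DESeq2 called 0. Their adjusted p ran from 0.596 to 0.979 in edgeR, so a trend within a stage was not detectable in these libraries.

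The wider matrix was described from 8 lists of 167 genes, 158 of them outside the 9, of which 105 passed the filter. In late organoids 1 of these rose and 5 fell, together 5.71%, beside 3.05% of all genes tested. Their median log2 fold change was -0.27, beside -0.02 for all genes. The lists were chosen with earlier results of these data known, so both comparisons with all genes are descriptions. The 5 other tested laminin chains held no call (median -0.63). The list of other basement membrane components had 1 call among 13 tested (median -0.10). This was Fras1, a large protein of embryonic epithelial basement membranes, which fell to 5.87 ± 2.38 CPM late, against 16.9 ± 8.13 early (log2 fold change -1.61, SE 0.39, adjusted p = 0.0439, edgeR). The 16 other matrix glycoproteins held no call (median -0.36).

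Of 14 other collagen-modifying enzymes and chaperones, 1 rose and 1 fell (median -0.42). Plod2, which hydroxylates lysines used for collagen cross-links, rose to 5.24 ± 1.62 CPM late, against 1.51 ± 0.86 early, with every late library above every early one (log2 fold change 1.88, SE 0.34, adjusted p = 0.0114, edgeR). P3h1, which modifies prolines and stands in the same list, lay on the other side of 0. Bmp1, the protease that trims procollagen ends, fell to 7.28 ± 1.35 CPM late, against 13.7 ± 3.11 early (log2 fold change -0.91, SE 0.22, adjusted p = 0.0427, edgeR). That call was lost in 9 of 11 fits that left out 1 library each, as was that of Fras1, and for Bmp1 also without passages 3 and 4 of mouse_283 (log2 fold change -0.69, adjusted p = 0.081). Over all alternatives run the adjusted p of Bmp1 lay between 0.00305 and 0.167.

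Among receptors, the 19 other integrin subunits held no call (median -0.13). Of 11 other matrix receptors 1 fell (median -0.42), the heparan sulfate proteoglycan Sdc2, to 0.80 ± 0.57 CPM late, against 4.69 ± 1.26 early (log2 fold change -2.67, SE 0.48, adjusted p = 0.0114, edgeR). Sdc2 and Plod2 passed in all 11 fits that left out 1 library. Of 13 adhesion plaque and hemidesmosome genes 1 fell (median 0.03). Plec, the linker between Itgb4 and keratin filaments, fell to 219 ± 45.5 CPM late, against 436 ± 115 early (log2 fold change -0.97, SE 0.20, adjusted p = 0.0216, edgeR). Of 14 matrix proteases and inhibitors 1 fell (median 0.04), the membrane-anchored metalloprotease Mmp14, to 12.8 ± 3.05 CPM late, against 28.9 ± 8.66 early (log2 fold change -1.17, SE 0.24, adjusted p = 0.0221, edgeR). Leaving out 1 library ended the call of Plec in 4 fits and of Mmp14 in 5.

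**Figure D4:**
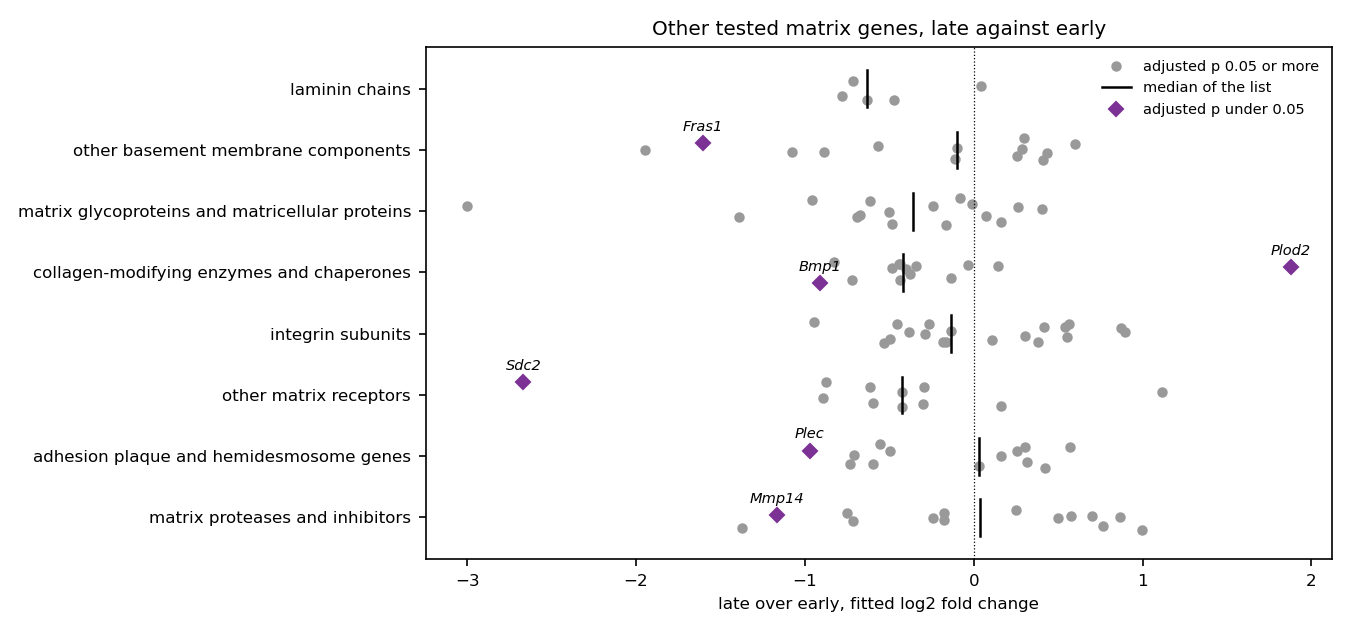
Fitted log2 fold change, late over early (horizontal axis), of the 105 tested genes in 8 matrix lists without the 9 described above, 1 point per gene. Diamonds mark the 6 genes with an adjusted p under 0.05, of which Plod2 lay above 0 and Fras1, Bmp1, Sdc2, Plec and Mmp14 below, and bars mark each list's median.

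None of these 105 genes passed in edgeR between the animals, in the interaction or for the slope. At an unadjusted p under 0.05 (edgeR) there were 18 of 105 between the animals, a larger share than the 730 of all 14172 genes (5.15%). There were 4 of 105 in the interaction, beside 302 of all genes (2.13%), and 7 of 105 for the slope, beside 911 (6.43%). DESeq2 was run without that filter, on those of the 158 genes outside the 9 that had any read. It called 3 between the animals, 0 in the interaction and 0 for the slope. Of this larger set it gave 34 no adjusted p between the animals and 42 none in the interaction.

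For each gene the tested gene of most similar pattern was found by the root mean square difference of centred log2 CPM over the 11 libraries, among 9668 genes of at least 5 CPM on average. Npnt lay nearest to Fmnl2, a formin that elongates actin filaments, at 0.31, and to Cd44 at 0.39, beside an SD of 1.14 for Npnt itself. Itga6 lay nearest to Tulp4 at 0.09 and Ppp3cb at 0.10, beside its own SD of 0.66. P3h1 lay nearest to Plekhb1 at 0.39 and Naaladl1 at 0.47, and Smoc1 to Dpep1 at 0.74 and Plekhb1 at 0.78. Emid1 lay nearest to Pdia2, a protein disulfide isomerase, at 0.60, and to Cyp2d22 at 0.68. Lama5 lay at 0.42 from Arl4c, and Lamb1 nearest to Arhgef28 at 0.35 and Tmem237 at 0.38. For Fn1 and Spp1 no gene of this pool came close. The nearest was Clu, which encodes the secreted chaperone clusterin, at 1.86 and 2.09, and then Oasl2 at 1.87 and 2.12. Genes under 5 CPM on average, Fn1 and Spp1 among them, were outside the pool. The distance of Fn1 and Spp1 from each other was therefore not part of this search. These distances rest on shared libraries and depth, and they are descriptions.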

How the data were processed

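Whole-organoid RNA was sequenced in 11 libraries, 1 per animal and passage. The authors deposited read counts per gene once without regard to strand and once for each strand. Reads had been trimmed with Trimmomatic and aligned with STAR to mm9, per the submitters' processing notes; versions and the annotation release are not given in the sources used here. The strand columns were nearly equal, so the unstranded counts were used. Summary lines that name no gene were left out of totals: unmapped reads were 4.76% to 10.2% and reads in no gene 3.77% to 11.7%. Passage numbers come from sample titles; those in the table names are higher by 1. Of 37310 identifiers 32620 matched a symbol. Reads are not independent molecules, so limits cover counting error only, and ratios of reads are given without an interval.

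Counts were fitted with edgeR 4.0.16 (limma 3.58.1, R 4.3.3): filterByExpr by stage and animal, TMM, quasi-likelihood tests (two-sided) with Benjamini-Hochberg adjustment over 14172 genes and a threshold of 0.05. For late against early the animal was a block, since libraries of one number come from one animal. The block, DESeq2 1.42.0, its size factors, the filter, the prior count of log2 CPM (2, alternative 0.5), GC and length offsets and single libraries were varied. Differences of mean log2 CPM described for the 9 genes are means of the within-animal differences. The Fn1 and Spp1 ratios without passage 2 of mouse_283 were chosen after seeing the data. GC content and length came from GENCODE M21 transcripts on GRCm38, a later build than mm9, by gene symbol or identifier. The libraries of an animal share their source, so p-values measure a spread between libraries that may be technical, and no label names a batch.

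The 9 genes, the 8 matrix lists and the 5 marker lists were chosen with earlier results of these data known. The text names the 9 genes, their binding or enzyme partners whatever their values (Itgb1, Itgb4, Lamc1, Lamb2, Itga8, Itga5, Itgav, Cd44, Crtap, Ppib, Smoc2), up to 4 genes per list with the smallest p past the threshold late against early, and the 2 genes of nearest pattern to each of the 9. Some genes that this rule covers are not reported here. Lamb3, Itga3, Agrn and the marker genes were named after their values were seen.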

Additional observations from a re-analysis of the deposited data

Results flagged for a closer look

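One result had a sample far from the others. Spp1 in early organoids was 44.0 CPM at passage 2 of mouse_283, while the next highest early library had 3.39 CPM, so that the gap took up 0.923 of the range of the 5 early libraries. Of 17 groups of values examined in this way 1 stood out, where chance flags about 1 group in 20 if all values come from 1 population. The 5 early libraries pool 2 animals, and Spp1 had 0 reads in those of mouse_285, so that rate need not hold here. Without that library Spp1 was still seen only at passages 3 and 4 of mouse_283, at 0.92 and 3.39 CPM.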

How the results depend on the processing

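The counts of called genes moved with the processing more than the members' directions did. Late against early gave 432 genes (100 higher, 332 lower). DESeq2 gave 1250 (447 higher, 803 lower), no low-count filter 1819 (1053 higher, 766 lower), GC and length offsets 986 (419 higher, 567 lower), and leaving out passages 3 and 4 of mouse_283 697 (200 higher, 497 lower). In the same order mouse_285 against mouse_283 (11 genes) gave 118, 207, 40 and 107, the interaction (0) gave 15, 65, 1 and 5, and the matrix lists (6) gave 14, 23, 10 and 10. The slope (0) gave 44 in DESeq2. Without the replicate block late against early gave 400 genes and the matrix lists 7, and no call of a named gene changed. With 1 library left out, late against early ranged from 173 (without passage 4 of mouse_285) to 4872 (without passage 2 of mouse_283), higher genes from 37 to 2596, lower genes from 133 to 2276, animals from 3 to 74, the interaction from 0 to 2314, the slope from 0 to 0 and the matrix lists from 2 to 39. The cause was not tested.

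Without passages 3 and 4 of mouse_283 the sign turned for Lamc1 (-0.184), Crtap (0.154), Smoc2 (0.081), Itga6 between animals (-0.20) and Lamb1 late minus early (-0.20), and with GC and length offsets for Crtap (0.23). With single libraries left out it turned for Lamc1 (-0.091 to 0.266), Crtap (-0.262 to 0.04), Lamb1 late minus early (-0.053 to 0.308), and between animals for Smoc1 (-0.324 to 0.879) and Itga6 (-0.017 to 0.43). Npnt, Fn1, Emid1, Smoc1, Spp1, P3h1, Lama5 and Itga6 kept the sign of their late minus early difference in all alternatives run. Depth limits Fn1, Spp1, Smoc1 and P3h1, which came near the limit of 3 counts in several libraries.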
